A study of Mus musculus with 24 samples.

Results

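The genes described here code for the subunits of oxidative phosphorylation, the 5 protein complexes of the inner mitochondrial membrane. They were chosen by symbol, from the nuclear families *Nduf*, *Sdh*, *Uqcr*, *Cox4* to *Cox8* and *Atp5* and from the protein-coding genes of mitochondrial DNA, and not by any measured value. Only protein-coding transcripts were counted. The rule gave 98 of 53392 genes, of which 85 were nuclear and 13 mitochondrial. Complex I had 42 members (7 mitochondrial), complex II had 4, complex III had 9 (1 mitochondrial), complex IV had 23 (3 mitochondrial) and complex V had 20 (2 mitochondrial). *Atp5o* is listed under a pair of gene IDs, and both were kept. *Cox7b2* and *Cox8c* had a mean of 0.0 TPM over the 24 libraries and entered no test.

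Complexes I to IV pass electrons from NADH and succinate to oxygen and, except for complex II, pump protons out of the matrix. Complex V, the ATP synthase, lets the protons back in and makes ATP. All complexes but complex II are built from subunits of both genomes, so nuclear transcription, mitochondrial transcription and import have to supply parts of one structure. Quiescent muscle stem cells (MuSCs) hold few mitochondria, cells that enter the cycle build more, and differentiated muscle depends on them and uses muscle isoforms of several complex IV subunits.

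RNA-seq covered 8 groups of 3 libraries. WT was C57BL/10ScSnJ and *mdx* was C57BL/10ScSn-Dmd mdx/J, which carries a mutation in the dystrophin gene, and mice of both genotypes also carried the nuclear reporter Pax7-nGFP. The age of the mice was not given in the sources used here. FiMuSCs were freshly isolated from uninjured muscle and AMuSCs were isolated 3 days after intramuscular 10 µM cardiotoxin (CTX), a toxin that kills myofibres. Both were sorted as cells positive for GFP and α7-integrin and negative for CD31, CD45, SCA1 and CD11b. Myoblasts were purified on magnetic columns and expanded in serum with bFGF, and myotubes were formed from them over 2 days in horse serum. Different kits were used for the RNA of sorted and of cultured cells, so that kit and origin cannot be told apart and no test was made across them. The libraries of a group are stated to be biological replicates, but whether each came from 1 animal or from a pool is not given in the sources used here.

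Library totals ranged from 37280196 to 64429222 expected counts. The summed TPM (a level per transcript length, scaled to the same total in every library) of 6 MuSC markers was 931 to 1073 in FiMuSCs and 289 to 479 in AMuSCs, and that of the proliferation markers was 9.71 to 27.4 in FiMuSCs and 178 to 305 in AMuSCs. Myofibre markers summed to 4757 to 6466 TPM in myotubes and to 45.9 to 414 TPM in myoblasts. A pair of *mdx* AMuSC libraries stood apart from the rest of their group. Replicate 1 held 2489 TPM of macrophage markers, against 70.8 and 173 TPM in the other *mdx* AMuSC libraries and at most 13.1 TPM in WT AMuSCs. Replicate 2 had the highest nuclear and the lowest mitochondrial share of counts of its group. Results of AMuSCs are therefore also given without each of them, and what part these differences had in the results was not tested.

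The question first asked was how much of the RNA of each group fell on these genes. Nuclear members took 0.445, 0.475 and 0.491% of all counts in the 3 WT FiMuSC libraries and 0.941, 1.02 and 1.03% in WT AMuSCs, so that every AMuSC library was above every FiMuSC library. In *mdx* the values were 0.461, 0.438 and 0.436% in FiMuSCs and 0.759, 1.12 and 0.859% in AMuSCs, again without overlap. They were 0.685, 0.774 and 0.684% in WT myoblasts and 1.601, 1.561 and 1.606% in WT myotubes. In *mdx* myoblasts they were 0.715, 0.783 and 0.792% and in *mdx* myotubes 1.27, 1.58 and 1.73%. The share thus rose in both steps and both genotypes, and in each of these 4 comparisons the exact permutation test (two-sided, 3 libraries against 3) gave p = 0.1, the smallest value it allows. In bulk libraries a change in the mix of cells and a change in the RNA per cell cannot be told apart.

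The 13 mitochondrial genes did not follow the nuclear ones after injury. They took 3.74% ± 0.708 (SD, n = 3) of counts in WT FiMuSCs and 3.97% ± 0.487 in WT AMuSCs (exact permutation p = 0.7), and 3.56% ± 0.401 in *mdx* FiMuSCs and 3.19% ± 0.643 in *mdx* AMuSCs (exact permutation p = 0.6). The ratio of mitochondrial to nuclear counts was therefore 7.998 ± 1.87 in WT FiMuSCs and 3.99 ± 0.50 in WT AMuSCs, and 7.98 ± 0.647 and 3.68 ± 1.31 in *mdx*. Differentiation raised the shares of both genomes. The mitochondrial share was 3.36% ± 0.176 in WT myoblasts and 5.92% ± 0.188 in WT myotubes, and 3.22% ± 0.177 and 5.40% ± 0.870 in *mdx* (exact permutation p = 0.1 in both genotypes). The ratio of mitochondrial to nuclear counts still fell, from 4.71 ± 0.285 to 3.72 ± 0.176 in WT and from 4.23 ± 0.259 to 3.55 ± 0.0875 in *mdx* (exact permutation p = 0.1 in both genotypes). Between genotypes the mitochondrial share overlapped in all 4 states, and no difference was shown in FiMuSCs (p = 0.7), AMuSCs (p = 0.3), myoblasts (p = 0.2) or myotubes (p = 0.4) by the exact permutation test. In AMuSCs it was 3.86, 4.51 and 3.55% in WT and 3.56, 2.45 and 3.56% in *mdx*, so that replicate 2 of *mdx* was the low one. The overlap in AMuSCs depended on the total used. With only protein-coding transcripts in the total, the share was 4.94% ± 0.589 in WT and 3.90% ± 0.842 in *mdx*, without overlap (exact permutation p = 0.1). With pseudogene copies summed the groups also did not overlap (exact permutation p = 0.1), and for the share of TPM the same test gave p = 0.6. *mt-Atp8* has to be read with care on the TPM scale, because its effective length was set to 10.0 bases in every library for a gene of 204 bases. It had 24738 to 47603 TPM in AMuSCs and so weighed heavily in the share of TPM. For this reason shares are given in counts.

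**Figure D1:**
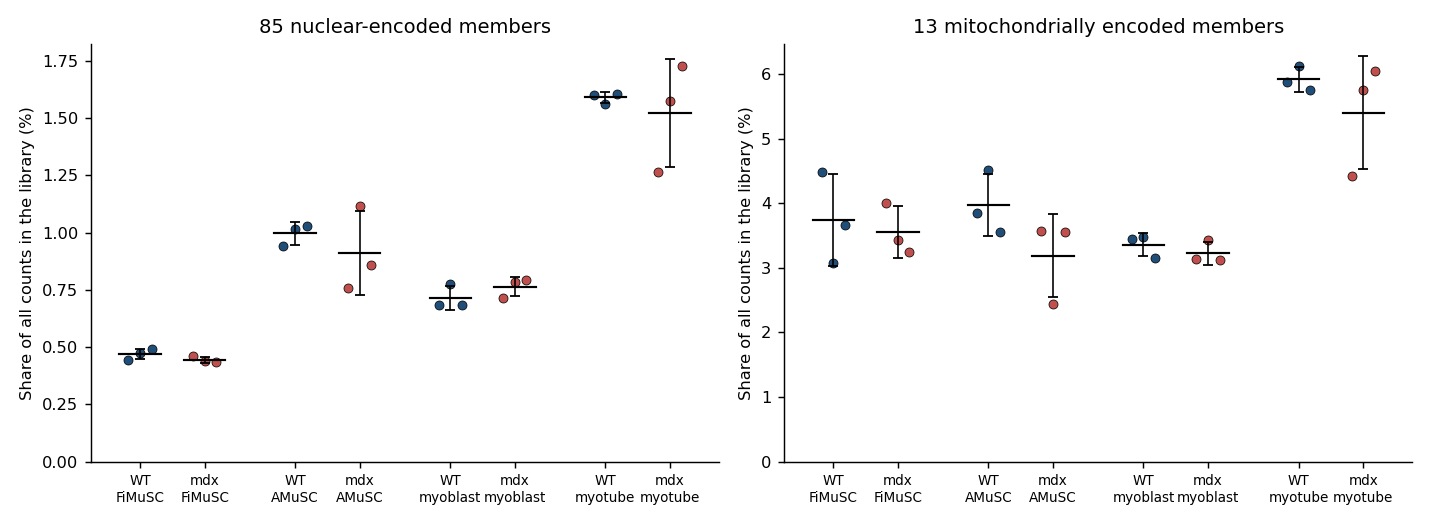
Share of all counts in each library (%, vertical axes) that fell on the 85 nuclear members (left) and the 13 mitochondrial members (right), in 8 groups of WT (blue) and *mdx* (red). Points are libraries, lines are means and bars are ± 1 SD. The nuclear share is higher in AMuSCs than in FiMuSCs and in myotubes than in myoblasts in every library, while the mitochondrial share is higher in myotubes only, and *mdx* AMuSC replicate 2 has 1.12% on the nuclear and 2.45% on the mitochondrial members.

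Injury raised the nuclear subunits of all 5 complexes in WT. Of 96 members tested between WT AMuSCs and FiMuSCs, 68 rose and 3 fell at an adjusted p under 0.05 (edgeR), where 61.8% of all genes tested passed, 31.1% upwards and 30.7% downwards. The median log2 fold change was 0.86 over the members and -0.05 over all 18966 genes tested. All 4 subunits of complex II (median 1.37) and all 8 nuclear subunits of complex III (1.33) rose, as did 15 of 18 of complex V (1.31), 11 of 18 of complex IV (0.88) and 25 of 35 of complex I (0.80). In *mdx* 59 of 95 members rose and 1 fell, against 27.7% of all genes (17.8% upwards and 9.90% downwards), with a median of 0.89 against 0.05. All AMuSC libraries lay above all FiMuSC libraries for 69 members in WT (34.9% of all genes) and for 64 in *mdx* (28.2%), and below them for 5 in WT (35.5%) and 7 in *mdx* (20.7%). There 4 of 4 nuclear subunits of complex II, 8 of 8 of complex III, 13 of 18 of complex V, 9 of 18 of complex IV and 25 of 34 of complex I rose. Without *mdx* AMuSC replicate 1 the count of rises in *mdx* was 55, and without replicate 2 it was 48, and it was lowest, at 40, without *mdx* FiMuSC replicate 2.

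The largest rise of a gene with 1 ID was that of *Atp5g3*, which codes for the ring of the ATP synthase through which protons pass. It had 157, 177 and 179 TPM in the WT FiMuSC libraries and 618, 633 and 684 TPM in WT AMuSCs, a log2 fold change of 2.37 ± 0.10 (SE; adjusted p = 1.99e-06, edgeR). In *mdx* it went from 183, 165 and 161 TPM to 407, 669 and 558 TPM (1.92 ± 0.22, adjusted p = 0.00162). All AMuSC libraries lay above all FiMuSC libraries, and *mdx* AMuSC replicate 1 was the lowest of the AMuSCs.

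*Cox5a*, a subunit of complex IV that lies on the matrix side, had 62.3, 77.1 and 74.1 TPM in WT FiMuSCs and 229, 266 and 259 TPM in WT AMuSCs, and 78.1, 75.4 and 87.8 TPM and 163, 258 and 215 TPM in *mdx*. Its log2 fold change was 2.27 ± 0.12 in WT and 1.63 ± 0.21 in *mdx*. *Sdhd*, an anchor of complex II in the membrane, had 39.4, 45.5 and 44.0 TPM and then 128, 135 and 143 TPM in WT, and 48.8, 42.6 and 44.8 TPM and then 91.7, 132 and 120.0 TPM in *mdx*. Its changes were 2.11 ± 0.10 and 1.57 ± 0.18. In both genes the groups did not overlap in either genotype.

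*Uqcrfs1*, the iron-sulfur protein of complex III, rose by 1.74 ± 0.11 in WT, and *Atp5o*, part of the stalk of the ATP synthase, by 1.84 ± 0.08 in WT and 1.67 ± 0.19 in *mdx*. The second ID of *Atp5o* had the largest value of all in WT (2.43 ± 0.36), but it lay between 3.71 and 30.7 TPM in the sorted cells and 74.4% of the reads on it and its copies were on the copies. *Atp5k* (1.56 ± 0.23) and the catalytic subunit *Atp5b* (1.54 ± 0.20) completed the 6 largest rises in *mdx*. The rises were graded even within complex II, where the flavoprotein *Sdha* rose by 0.72 ± 0.08 in WT and 0.88 ± 0.15 in *mdx*, the iron-sulfur subunit *Sdhb* by 1.66 ± 0.10 and 1.52 ± 0.19, and *Sdhc* by 1.08 ± 0.10 and 1.05 ± 0.17.

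**Figure D2:**
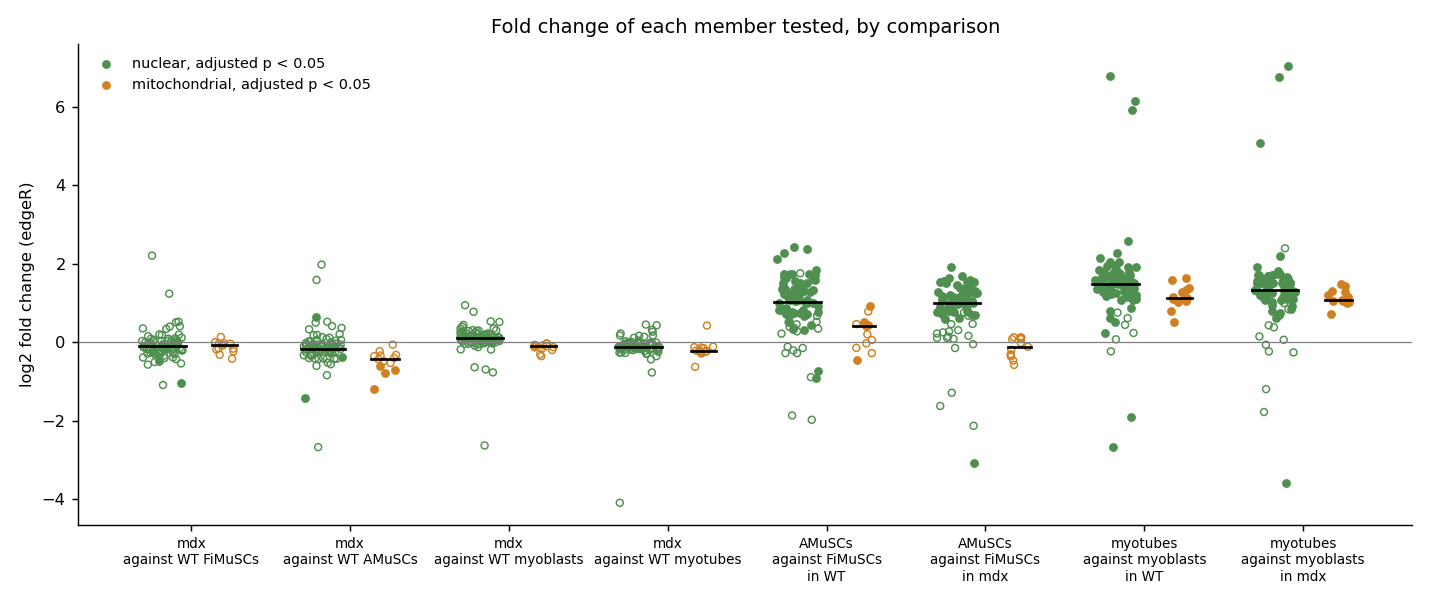
log2 fold change (edgeR, vertical axis) of each member tested in 8 comparisons, with nuclear members in green and mitochondrial members in orange. Filled points passed an adjusted p under 0.05, open points did not, and bars are medians. The nuclear members lie mostly above 0 after injury and in differentiation in both genotypes, and the mitochondrial members have medians of 0.42 and -0.12 after injury and 1.13 and 1.08 in differentiation, in WT and *mdx*.

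A few nuclear members fell after injury. *Ndufv3*, an accessory subunit of complex I next to the NADH-binding site, had 52.1, 58.9 and 71.3 TPM in WT FiMuSCs and 27.2, 29.5 and 29.7 TPM in WT AMuSCs (-0.91 ± 0.11, adjusted p = 0.000222). *Atp5s*, a coupling factor of the ATP synthase, had 17.0, 17.4 and 17.0 TPM and 9.57, 10.0 and 7.83 TPM (-0.73 ± 0.17, adjusted p = 0.00576). In *mdx* the only fall was that of *Cox8b*, the muscle isoform of a small complex IV subunit, from 8.62, 5.18 and 6.03 TPM to 0.355, 0.852 and 0.713 TPM (-3.08 ± 0.59, adjusted p = 0.00983). In WT it was not called (0.39 ± 1.15), and its AMuSC values were 0.887, 12.1 and 0.435 TPM. The high one, WT AMuSC replicate 2, also had the highest summed myofibre markers of its group, 235 TPM against 102 and 88.5 TPM, and the part of these in the result was not tested.

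*Ndufv3* was the 1 member of 96 whose response to injury differed between genotypes by the test of the difference itself, where 13.3% of all genes passed (7.19% with *mdx* higher and 6.14% lower). It held 52.2, 38.6 and 36.4 TPM in *mdx* FiMuSCs and 43.6, 46.7 and 41.7 TPM in *mdx* AMuSCs, a log2 fold change of 0.11 ± 0.18. The difference, *mdx* minus WT, was 0.96 ± 0.23 (adjusted p = 0.0219), and it lost its call in 6 of 21 alternatives, with adjusted p between 0.00187 and 0.0714. Within AMuSCs all *mdx* libraries were above all WT libraries (0.65 ± 0.13, adjusted p = 0.0155), a call lost in 4 of 15 alternatives, among them leaving out any 1 WT AMuSC library.

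The gene has a short and a long coding transcript. The long one, of 1537 bases, had 13.2, 10.5 and 14.0 TPM in WT FiMuSCs and 3.46 to 3.796 TPM in WT AMuSCs, and 13.1, 9.11 and 8.86 TPM and 8.17, 8.79 and 7.55 TPM in *mdx*. The WT AMuSC libraries were thus the low ones, below every other sorted library. The short one, of 485 bases, had 37.5, 47.5 and 54.9 TPM and 22.5, 25.1 and 25.8 TPM in WT, and 38.4, 28.7 and 26.9 TPM and 34.7, 37.4 and 33.8 TPM in *mdx*. In myotubes the long form stayed between 4.10 and 5.34 TPM while the short form reached 99.2 to 128 TPM.

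The mitochondrial genes were then compared one by one. The mouse mitochondrial genome codes for 7 subunits of complex I, cytochrome b of complex III, the 3 catalytic subunits of complex IV and 2 subunits of the ATP synthase, all but *mt-Nd6* on one strand, from which long precursors are transcribed and cut. In WT 5 of them rose after injury, namely *mt-Nd6* (0.91 ± 0.16, adjusted p = 0.00154), *mt-Atp6* (0.50 ± 0.16), *mt-Nd1* (0.44 ± 0.15), *mt-Co1* (0.43 ± 0.15) and *mt-Co2* (0.42 ± 0.15). *mt-Nd4* fell (-0.45 ± 0.16), where 31.1% of all genes rose and 30.7% fell. Apart from *mt-Nd6* these calls were close to the threshold and each was lost in 5 to 7 of 15 alternatives. In *mdx* none of the 13 passed with edgeR (2 at an unadjusted p under 0.05, and 1 with DESeq2), with a median of -0.12. With edgeR 17.8% of all genes rose and 9.90% fell in *mdx*. The test of the difference called none of the 13 with edgeR or DESeq2, 4 had an unadjusted p under 0.05, and all 13 values were below 0 (median -0.44, against -0.03 over all genes).

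Between *mdx* and WT AMuSCs 4 of the 7 mitochondrial genes of complex I were lower in *mdx*. Of 94 members tested 1 was higher and 6 were lower, against 22.3% of all genes (14.0% upwards and 8.36% downwards), so that the share of lower members was under that of all genes. Several marker sums also differed without overlap, and their part in the results was not tested. MuSC markers summed to 308, 289 and 293 TPM in WT and 459.9, 452 and 479 TPM in *mdx*, and proliferation markers to 297, 293 and 305 TPM in WT and 178, 213 and 240.1 TPM in *mdx*. Mural markers summed to 69.3, 75.6 and 54.8 TPM in WT and 209, 252 and 192 TPM in *mdx*, and those of fibro-adipogenic progenitors to between 6.24 and 7.79 TPM in WT and between 31.0 and 45.2 TPM in *mdx*. The mural, fibro-adipogenic and MuSC sums were thus higher and the proliferation sum lower in *mdx*. The mural sum was mostly *Acta2* (104, 182 and 107 TPM in *mdx*) and *Notch3* (91.8, 59.5 and 72.1 TPM). *Myh11*, *Higd1b*, *Kcnj8* and *Abcc9* were under 1 TPM in every AMuSC library. Of these only *Myh11* overlapped between genotypes, and the others were higher in *mdx*. *Rgs5*, *Pdgfrb* and *Cspg4* were also higher in *mdx* AMuSCs without overlap. *Pdgfrb* had 0.223 to 0.408 TPM in WT AMuSCs and 3.29 to 4.98 TPM in *mdx* AMuSCs. The fibro-adipogenic sum was mostly *Dpt*, which had 190 to 345 TPM in FiMuSCs, while *Pdgfra* and *Lum* were under 1 TPM in AMuSCs. *Ly6a* had 1.56 to 2.32 TPM in WT AMuSCs and 7.94 to 11.7 TPM in *mdx* AMuSCs. Each fibro-adipogenic marker (*Dpt*, *Ly6a*, *Dcn*, *Pdgfra* and *Lum*) was higher in *mdx* AMuSCs without overlap. These sums alone do not show that mural or fibro-adipogenic cells were present. The libraries did not overlap for 17 members that were lower in *mdx* (18.6% of all genes) and 4 that were higher (25.7%). *mt-Nd6* (M:13552-14070, minus strand) had 142, 146 and 101 TPM in WT AMuSCs and 58.6, 58.6 and 79.9 TPM in *mdx* AMuSCs (-1.19 ± 0.18, adjusted p = 0.0068). The libraries did not overlap, and the call held in all 15 alternatives (adjusted p up to 0.0401). The strand setting of the counting is not given in the sources used here, and without it reads of *mt-Nd6* and of RNA from the opposite strand cannot be told apart.

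*mt-Nd3* had 1231, 1171 and 879 TPM in WT AMuSCs and 699.6, 646 and 812 TPM in *mdx* (-0.80 ± 0.15, adjusted p = 0.0116), and *mt-Nd2* had 1317, 1609 and 1266 TPM and 1069.8, 817 and 1177 TPM (-0.70 ± 0.18, adjusted p = 0.032). *mt-Nd1* had 2411, 2785 and 2356 TPM and 2016, 1566 and 2208 TPM (-0.61 ± 0.16, adjusted p = 0.0361). In each the *mdx* libraries were below the WT libraries, and replicate 2 was the lowest of all for each of the 3. Of the 13 genes, 10 had no overlap between the groups, all with *mdx* lower (18.6% of all genes), and the median was -0.43. The call of *mt-Nd3* was lost in 2, that of *mt-Nd2* in 4 and that of *mt-Nd1* in 6 of 15 alternatives, and 61.9% of the reads on *mt-Nd3* and its copy were on the nuclear copy.

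**Figure D3:**
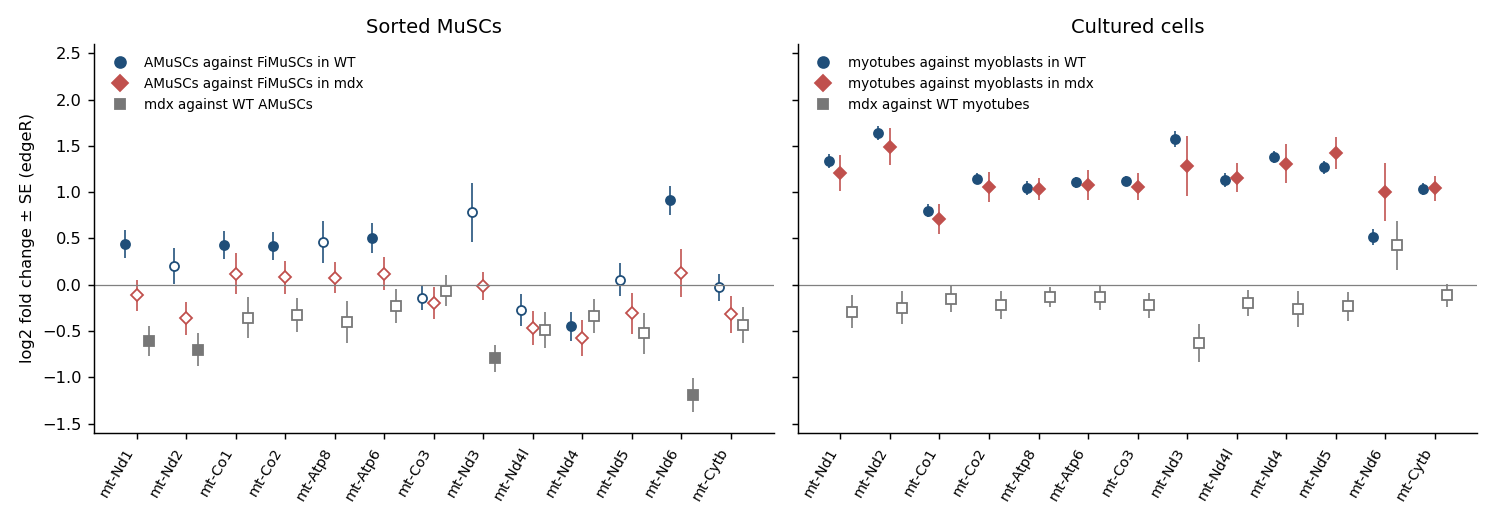
log2 fold change ± SE (edgeR, vertical axes) of the 13 mitochondrial genes, in the order of their start along the genome, for sorted MuSCs (left) and cultured cells (right). Blue circles are the change in WT, red diamonds the change in *mdx* and grey squares *mdx* against WT in the later state, and filled symbols passed an adjusted p under 0.05. In AMuSCs the *mdx* values lie below WT for all 13 genes, with *mt-Nd6* at -1.19, and in myotubes all 13 genes are above myoblasts in both genotypes.

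Among nuclear members in AMuSCs, *Ndufb8* was lower in *mdx* (-0.38 ± 0.11, adjusted p = 0.0471), a call that 9 of 15 alternatives lost, and *Ndufa12* was lower as described below. How many members differed rested on single libraries. Without WT AMuSC replicate 1, 2 or 3 the calls among all members were 2, 2 and 3, all lower in *mdx*, in fits that called 5.82, 7.54 and 5.89% of all genes. Without *mdx* AMuSC replicate 2, where 27.2% of all genes were called, 32 of 82 nuclear members were lower in *mdx* and 1 was higher (median -0.40), while the mitochondrial genes still had 4 calls. Without replicate 1 there was 1 lower nuclear member (median -0.07) and the mitochondrial median was -0.56. For *Cox5a*, *Atp5g3* and *Sdhd*, whose values are given above, replicate 1 was the lowest of the AMuSC libraries and replicate 2 the highest of the *mdx* AMuSC libraries.

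Differentiation raised almost the whole set. Between WT myoblasts and myotubes 87 of 95 members rose and 2 fell (66.6% of all genes passed, 33.5% upwards and 33.2% downwards), with a median log2 fold change of 1.45 against -0.02 over all genes. In *mdx* 81 of 95 rose and 1 fell (50.0% of all genes, 24.7% upwards and 25.3% downwards), with a median of 1.31 against -0.07. In both genotypes all 4 subunits of complex II, all 8 nuclear subunits of complex III and all 13 mitochondrial genes rose. For complex I 32 of 35 nuclear subunits rose in WT and 30 of 35 in *mdx*, for complex IV 15 and 12 of 17, and for complex V 15 and 14 of 18. No difference between genotypes in this response was called over 95 members with edgeR (2 at an unadjusted p under 0.05) or with DESeq2, where 6 of 18305 genes (0.0328%) passed in all, 0.00546% upwards and 0.0273% downwards. The myotube libraries lay above all myoblast libraries for 86 members in WT (36.9% of all genes) and 84 in *mdx* (30.7%), and below them for 2 in WT (36.9%) and 3 in *mdx* (31.9%).

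*mt-Nd2*, a membrane subunit that takes part in proton pumping, went from 1620.3, 1576 and 1386 TPM to 3408, 3570.1 and 3146 TPM in WT, the largest change among the mitochondrial genes (1.64 ± 0.08), and from 1424, 1530.0 and 1453 TPM to 2443, 3055 and 3286 TPM in *mdx* (1.49 ± 0.20). *mt-Nd6* changed least in WT (0.52 ± 0.09). The largest rises of nuclear subunits outside complex IV were those of *Ndufa5* and *Ndufa9*, accessory subunits of the arm of complex I that reaches into the matrix. *Ndufa5* had 105, 101 and 79.4 TPM in WT myoblasts and 439, 409 and 436 TPM in WT myotubes (2.57 ± 0.12, and 2.20 ± 0.28 in *mdx*). These values are of its coding transcripts, and 59.1% of the reads of the gene were on transcripts not annotated as coding. *Ndufa9* had 43.1, 47.1 and 45.7 TPM and 167, 165 and 167 TPM (2.26 ± 0.06, and 1.92 ± 0.17 in *mdx*). *Ndufa6* rose by 2.14 ± 0.15 in WT and *Ndufb9* by 1.81 ± 0.18 in *mdx*. The myotube libraries lay above all myoblast libraries for each of these genes.

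The widest changes were in subunits of complex IV that exist as isoforms. Complex IV of heart and skeletal muscle holds the muscle forms *Cox6a2*, *Cox7a1* and *Cox8b*, and most other tissues hold *Cox6a1*, *Cox7a2* and *Cox8a*. The 250 bases before the RefSeq start of *Cox8b*, *Cox8a* and *Cox6a1* (GRCm38.p6, minus strand, 5′ to 3′) and of *Cox7a1* (plus strand) are printed as the start regions of muscle forms and of common forms. Capitals mark matches of the E-box CAGCTG that myogenic factors bind, of the NRF1 motif and of the GABP motif CCGGAAG on either strand, and no match overlaps another.
Cox8b, chr7:140900447-140900696: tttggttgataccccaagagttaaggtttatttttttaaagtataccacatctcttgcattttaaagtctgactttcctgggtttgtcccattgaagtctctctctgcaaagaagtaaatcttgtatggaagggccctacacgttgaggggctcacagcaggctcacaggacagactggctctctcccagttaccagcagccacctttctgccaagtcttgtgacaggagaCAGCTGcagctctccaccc
Cox7a1, chr7:30183921-30184170: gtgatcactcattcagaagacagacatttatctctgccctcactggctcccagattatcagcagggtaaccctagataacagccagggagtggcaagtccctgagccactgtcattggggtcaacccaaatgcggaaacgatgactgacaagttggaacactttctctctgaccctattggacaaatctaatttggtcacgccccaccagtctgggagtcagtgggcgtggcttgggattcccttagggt
Cox8a, chr19:7217617-7217866: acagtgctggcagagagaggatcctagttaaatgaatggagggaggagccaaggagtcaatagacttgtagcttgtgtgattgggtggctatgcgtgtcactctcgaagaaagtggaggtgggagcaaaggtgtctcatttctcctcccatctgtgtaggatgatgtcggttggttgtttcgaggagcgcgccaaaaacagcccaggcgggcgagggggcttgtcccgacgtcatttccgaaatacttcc
Cox6a1, chr5:115348959-115349208: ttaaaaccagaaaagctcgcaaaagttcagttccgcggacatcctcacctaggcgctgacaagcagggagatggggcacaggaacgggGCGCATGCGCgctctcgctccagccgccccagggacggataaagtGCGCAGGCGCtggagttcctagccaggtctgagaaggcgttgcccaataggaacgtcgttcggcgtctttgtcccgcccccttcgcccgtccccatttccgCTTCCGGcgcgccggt
*Cox8b* held the E-box 19 to 14 bases before its start, *Cox6a1* held 2 NRF1 matches and 1 GABP match, and the muscle form *Cox7a1* and the common form *Cox8a* held none of the 3 motifs, so no motif set the printed muscle forms apart from the common forms. A match is a description of letters, not of binding. Of 85 nuclear members 66 had a RefSeq start region of 300 bases. In these the NRF1 motif stood in 16 (24.2%, against 4.78% of all 27025 regions) and the GABP motif in 15 (22.7%, against 9.12%), and the E-box in 6 (9.09%, against 16.1%).

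*Cox8b* was at 1.82, 10.8 and 4.22 TPM in WT myoblasts and 525, 434 and 456 TPM in WT myotubes (6.77 ± 0.57, adjusted p = 0.000169), and at 1.75, 11.1 and 2.47 and 308, 432 and 527 TPM in *mdx* (6.76 ± 0.80, adjusted p = 0.000846). Replicate 2 of each genotype was the high one among the myoblasts, and these libraries also had the highest summed myofibre markers of their groups, 414 and 193 TPM. *Cox8a* stayed at 283, 319.6 and 288 TPM in WT myoblasts and 289, 277 and 242 TPM in WT myotubes (0.24 ± 0.08, a call that 6 alternatives lost) and was not called in *mdx* (0.06 ± 0.12). In WT its TPM did not rise although the log2 fold change, which comes from counts scaled by edgeR, was above 0. No direction is therefore read from this call. The muscle form made up 63.6% ± 2.27 of the TPM of the *Cox8* family in WT myotubes and 59.6% ± 8.43 in *mdx* myotubes (SD, n = 3), and at most 3.62% in any other library.

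*Cox6a2* (chr7:128205435-128206387) went from 0.915, 5.69 and 0.969 TPM to 127, 128 and 155 TPM in WT (6.15 ± 0.78, adjusted p = 0.00104) and from 1.01, 2.99 and 0.622 TPM to 86.6, 123 and 252 TPM in *mdx* (7.04 ± 0.80). *Cox6a1* stayed between 141 and 223 TPM in cultured cells and was called in WT only (0.51 ± 0.10), and the difference between genotypes was not called (adjusted p = 0.333). *Cox6a2* held 41.2% ± 6.41 of the pair in WT myotubes and 47.6% ± 14.6 in *mdx* myotubes, and at most 2.90% in any other library. *Cox7a1* (chr7:30184144-30186078) went from 1.57, 4.14 and 2.82 TPM to 143, 127 and 122 TPM in WT (5.93 ± 0.31) and from 3.01, 6.21 and 3.44 TPM to 59.4, 109.9 and 148 TPM in *mdx* (5.09 ± 0.52). Its partner *Cox7a2* cannot be set beside it, since 97.0% of the reads of that gene were on transcripts not annotated as coding. *Cox7a1* alone of the 3 was also higher in WT AMuSCs than in WT FiMuSCs (1.24 ± 0.34, adjusted p = 0.0131).

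*Cox6b2*, known as the testis form of the subunit at the contact between complex IV monomers, moved the other way. It had 25.5, 18.3 and 35.7 TPM in WT myoblasts and 1.87, 5.87 and 2.69 TPM in WT myotubes (-2.66 ± 0.42, adjusted p = 0.000978), and 80.8, 43.6 and 35.2 TPM and 4.95, 3.49 and 1.01 TPM in *mdx* (-3.60 ± 0.49, adjusted p = 0.00139). *Cox6b2* held 8.26% ± 2.87 of the coding TPM of the *Cox6b* pair in WT myoblasts, 13.9% ± 5.66 in *mdx* myoblasts and 0.520% ± 0.331 in WT myotubes. These shares do not give the balance of the genes. Transcripts not annotated as coding, which were left out, held 61.2% of the reads of *Cox6b1* and 27.3% of those of *Cox6b2*. *Cox6b1* rose by 1.59 ± 0.07 in WT and 1.40 ± 0.15 in *mdx*, with 688, 649.8 and 679 TPM in WT myotubes.

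**Figure D4:**
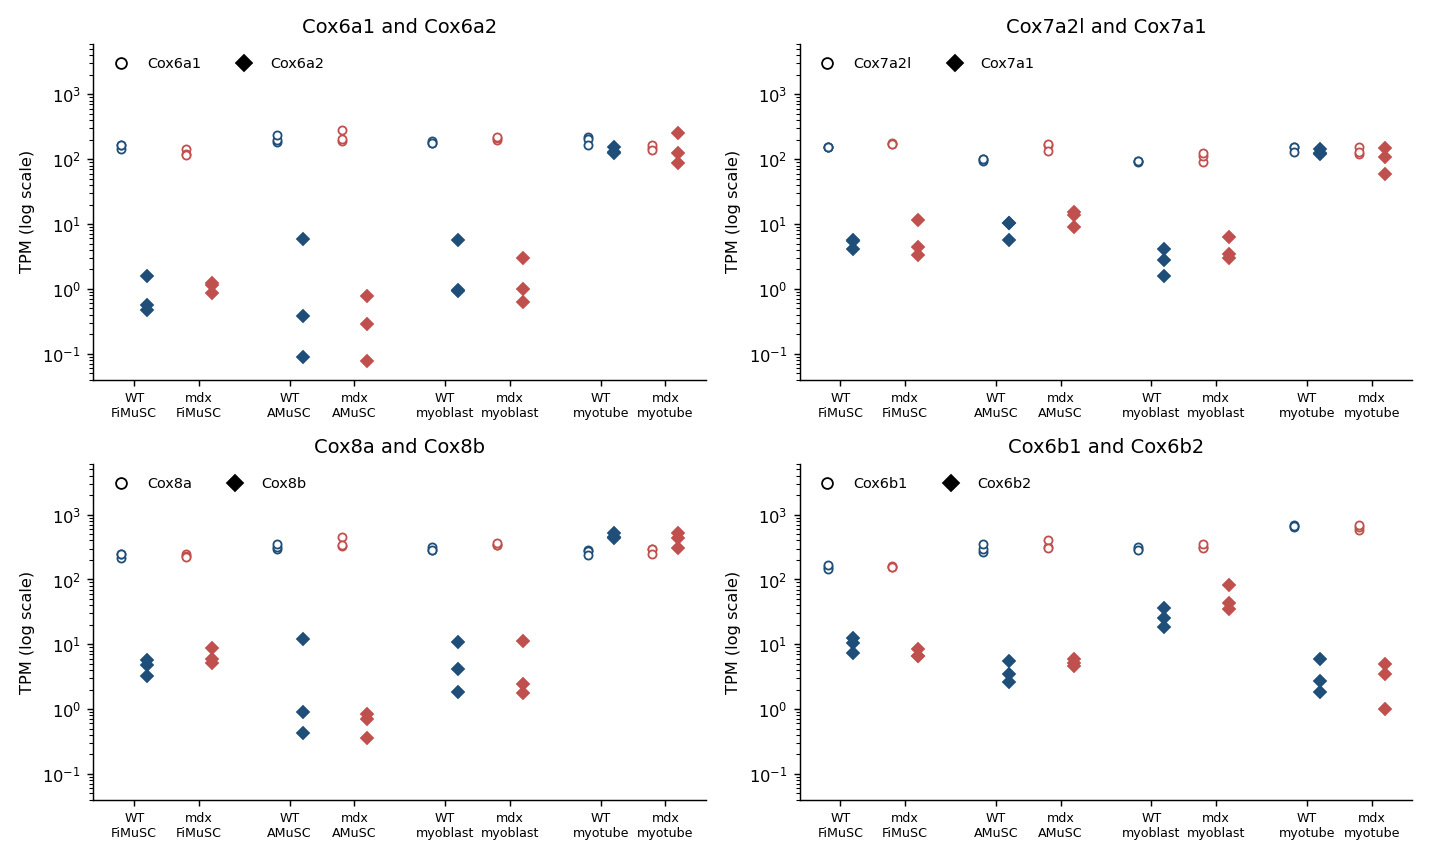
TPM (log scale, vertical axes) of 4 isoform pairs of complex IV subunits in every library of the 8 groups, WT in blue and *mdx* in red. Open circles are *Cox6a1*, *Cox8a*, *Cox7a2l* and *Cox6b1*, and filled diamonds *Cox6a2*, *Cox8b*, *Cox7a1* and *Cox6b2*. *Cox6a2*, *Cox7a1* and *Cox8b* reach 59.4 to 527 TPM in myotubes and stay at or under 15.3 TPM elsewhere, and *Cox6b2* falls from 18.3 to 80.8 TPM in myoblasts to 1.01 to 5.87 TPM in myotubes.

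The isoforms known to rise in low oxygen, *Cox4i2* and *Ndufa4l2*, stayed low. *Cox4i2* lay between 0 and 2.82 TPM and *Ndufa4l2* between 0 and 4.04 TPM in all libraries, against 406 to 985 TPM for *Cox4i1* and 171 to 824 TPM for *Ndufa4*. Both were highest in *mdx* FiMuSCs, with 2.82, 1.47 and 1.12 TPM and 4.04, 1.35 and 0.834 TPM, without overlap with WT FiMuSCs and without a call with edgeR (adjusted p = 0.163 and 0.146). Summed mural-cell markers overlapped, at 351, 228 and 194 TPM in *mdx* and 245, 265 and 309 TPM in WT FiMuSCs. The sum was mostly *Notch3* and *Acta2*, which each overlapped, as did *Myh11*, *Kcnj8* and *Cspg4*. The other listed markers, *Rgs5*, *Pdgfrb*, *Higd1b* and *Abcc9*, were higher in *mdx* FiMuSCs without overlap. *Rgs5* had 20.2 to 45.1 TPM in *mdx* and 6.96 to 14.5 TPM in WT. The part of mural cells in the values of *Cox4i2* and *Ndufa4l2* was not tested. *Atp5g3* made up 72.5% ± 1.45 of the *Atp5g* family in WT FiMuSCs and 83.2% ± 1.41 in WT AMuSCs, although 95.7% of the reads on *Atp5g2* and its copies were on copies.

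Levels between genes were compared on the TPM scale. Apart from *mt-Atp8*, the mitochondrial genes were led by *mt-Atp6* (mean of 24 libraries 9397 TPM), *mt-Co2* (7564 TPM), *mt-Co3* (5562 TPM) and *mt-Nd4l* (4697 TPM), and *mt-Nd6*, the gene of the other strand, was lowest (101.4 TPM). Among nuclear members *Cox4i1* (578 TPM), *Atp5g3* (573 TPM), *Ndufa4* (503 TPM) and *Atp5b* (502 TPM) led. *Sdhc* (245 TPM) led complex II, *Uqcrq* (363 TPM) the nuclear subunits of complex III and *Ndufa6* (287 TPM) those of complex I. For 19 members over 50% of the gene's reads were on transcripts not annotated as coding, and their low TPM values, such as 0.187 TPM for *Ndufb4*, do not give the level of the gene.

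Between genotypes few members passed outside AMuSCs. In FiMuSCs 2 of 95 were lower in *mdx* and none higher, against 8.34% of all genes (5.20% upwards and 3.14% downwards). Nuclear complex I subunits had a median of -0.21, and 16 of 34 lay lower in every *mdx* library than in every WT library (14.7% of all genes did so, and 16.1% lay higher), while the other nuclear subunits had medians between -0.07 and 0.03. Macrophage markers summed to 54.5, 194 and 38.7 TPM in WT FiMuSCs and 253, 429 and 763 TPM in *mdx* FiMuSCs, without overlap, and their part in these values was not tested. *Ndufb2* was at 33.9, 42.4 and 48.0 TPM in WT and 31.8, 30.8 and 30.8 TPM in *mdx* (-0.48 ± 0.11, adjusted p = 0.0497), and 9 of 15 alternatives lost the call. The count of lower members was 6 without *mdx* FiMuSC replicate 1 and 1 without *mdx* replicate 2 or 3 or WT replicate 2 or 3. In myoblasts no member passed with edgeR (6 of 95 at an unadjusted p under 0.05) and *mt-Nd5* passed with DESeq2, where 0.284% of all genes passed with edgeR (0.213% upwards and 0.0709% downwards). There 6 members were higher in every *mdx* library than in every WT library (10.4% of all genes) and 2 were lower (9.40%). In myotubes no member passed with edgeR (7 of 95 at an unadjusted p under 0.05) and *Ndufa12* passed with DESeq2, where 0.449% of all genes passed with edgeR (0.285% upwards and 0.165% downwards). There 13 members were lower in every *mdx* library (9.91% of all genes) and none was higher in every one (10.3%). The median was 0.06 in myoblasts and -0.13 in myotubes, where it was 0.0039 without *mdx* replicate 1. That library had a mitochondrial share of 4.41% against 5.75 and 6.05% in the other *mdx* myotubes, and 907 TPM of mural markers against 327 TPM in each of them. Of the mural sum *Acta2* alone made up 893 TPM in that library and 308 and 309 TPM in the others. *Rgs5*, *Myh11*, *Higd1b*, *Kcnj8* and *Cspg4* were under 1 TPM in all *mdx* myotubes.

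*Ndufa12* (chr10:94198720-94221443, plus strand, 4 exons), an accessory subunit needed to complete complex I, was lower in every *mdx* library than in every WT library in each of the 4 states. Its reads cannot be taken alone, since Gm15920, a processed pseudogene (chr5:130188395-130188796), repeats coding bases 37 to 438 of *Ndufa12* and differs at 2 of 402 bases, A135G and T414C, counted from the first base of the start codon of *Ndufa12*. They stand in exons 2 and 4 of *Ndufa12*, each at the third base of a codon. Reads that lie within the 402 shared bases and miss both differing bases match both genes equally. The coding transcripts of *Ndufa12* have 566 and 1110 bases, and of the pair, reads on their other bases match *Ndufa12* only. The stretches around the 2 differing bases, read from GENCODE M21 transcripts (GRCm38, 5′ to 3′), are printed, and capitals mark the differing base.
Ndufa12, coding bases 105 to 165: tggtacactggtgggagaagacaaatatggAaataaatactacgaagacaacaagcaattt
Gm15920, the same stretch: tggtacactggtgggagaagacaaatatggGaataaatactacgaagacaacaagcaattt
Ndufa12, coding bases 384 to 438: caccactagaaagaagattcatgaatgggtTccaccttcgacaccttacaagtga
Gm15920, the same stretch: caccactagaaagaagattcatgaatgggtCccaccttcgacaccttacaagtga

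Reads are given as CPM, counts scaled to the library total. In FiMuSCs *Ndufa12* had 23.1, 25.6 and 26.7 CPM in WT and 12.3, 12.1 and 11.9 in *mdx* (-1.04 ± 0.10, adjusted p = 0.00449), while Gm15920 had 4.61, 5.77 and 5.53 in WT and 15.2, 15.5 and 12.9 in *mdx*. In AMuSCs *Ndufa12* had 61.7, 75.5 and 65.5 in WT and 19.7, 32.5 and 24.2 in *mdx* (-1.43 ± 0.20, adjusted p = 0.00524), and Gm15920 had 11.4, 12.2 and 19.5 in WT and 25.4, 40.9 and 30.03 in *mdx*. The pseudogene thus was high where the gene was low, with no overlap between genotypes in either.

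The cultures showed the same split more widely. *Ndufa12* had 50.8, 48.5 and 46.0 CPM in WT myoblasts and 1.01, 21.9 and 1.09 in *mdx* myoblasts, and 89.0, 84.1 and 87.0 in WT myotubes and 1.25, 9.13 and 5.32 in *mdx* myotubes. Gm15920 had 12.5, 14.4 and 14.3 in WT myoblasts and 53.6, 43.7 and 53.3 in *mdx* myoblasts, and 19.9, 19.3 and 23.9 in WT myotubes and 73.9, 87.3 and 95.4 in *mdx* myotubes. Neither difference of *Ndufa12* was called with edgeR (-2.63 ± 1.21, adjusted p = 0.429, and -4.10 ± 0.63, adjusted p = 0.0638). *mdx* myoblast replicate 2 stood apart from the other *mdx* myoblasts, and without it the myoblast value was -5.57 (adjusted p = 0.000298). That library also had 85.7 TPM of macrophage markers, against 1.51 and 2.81 TPM in the other *mdx* myoblasts. Its erythroid markers summed to 39.3 TPM (0.295 and 3.62 in the others) and its fibro-adipogenic markers to 32.3 TPM (4.40 and 12.2). The part of these in the values of *Ndufa12* was not tested. In myotubes *Ndufa12* was called without *mdx* replicate 1 (adjusted p = 0.00956) or replicate 2 (0.0484), and in one fit of all 24 libraries it was called in myotubes (0.0243) but not in FiMuSCs (0.541).

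Of the reads on the pair, *Ndufa12* took 76.4 to 86.1% in WT libraries of every state, 43.7 to 48.1% in sorted *mdx* cells, 1.86, 33.4 and 2.00% in *mdx* myoblasts and 1.66, 9.47 and 5.28% in *mdx* myotubes. Summed, the pair held 27.8, 31.4 and 32.3 CPM in WT FiMuSCs and 27.5, 27.7 and 24.8 in *mdx* FiMuSCs, and 109, 103 and 111 in WT myotubes and 75.1, 96.4 and 101 in *mdx* myotubes. With copies summed the log2 fold change was -0.20 in FiMuSCs (adjusted p = 0.283), -0.54 in AMuSCs (0.0877), -0.14 in myoblasts (0.577) and -0.32 in myotubes (0.387), and none passed. A retained-intron transcript of the gene had 27.0 to 65.1 TPM in 5 of 6 *mdx* cultures and 0 to 5.12 TPM in every other library. Why the reads divide differently by genotype was not tested.

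**Figure D5:**
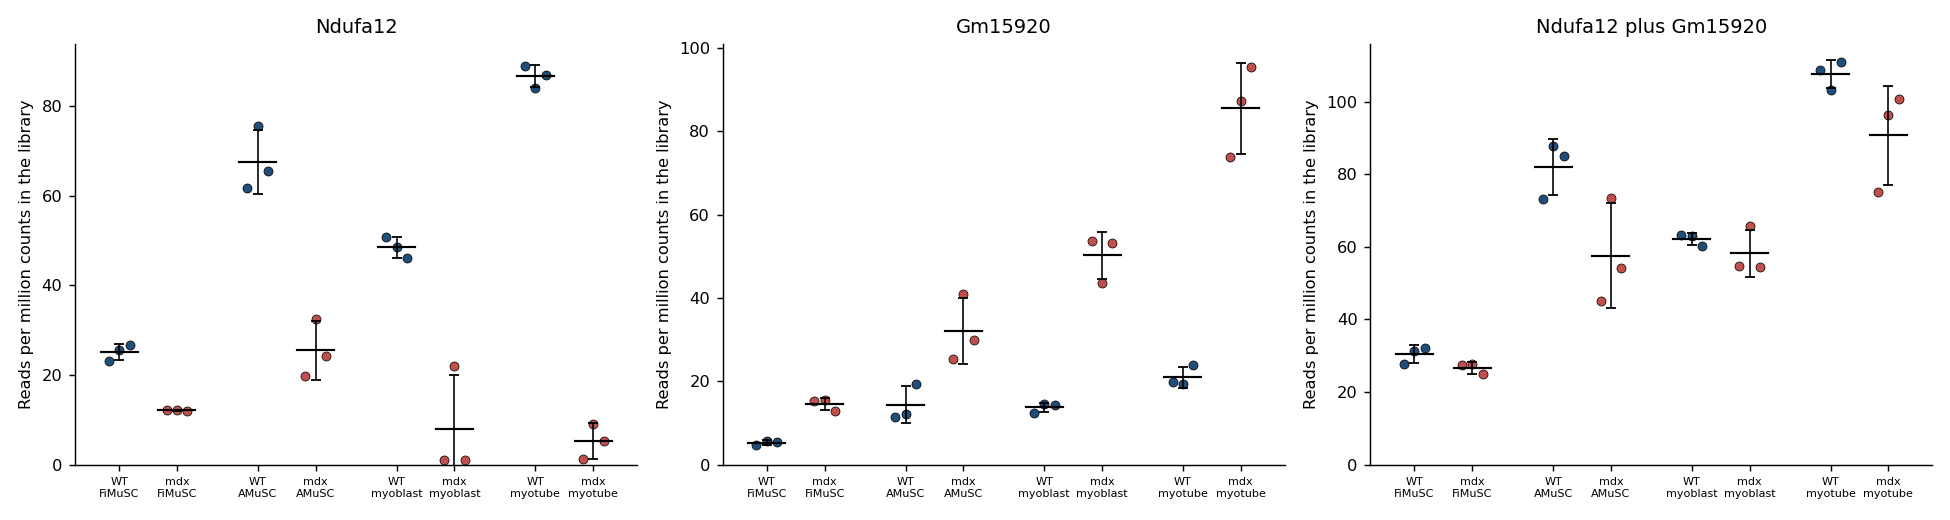
CPM (counts scaled to the library total, vertical axes) on *Ndufa12*, on its pseudogene Gm15920 and on both together in 8 groups, WT in blue and *mdx* in red. Points are libraries, lines are means and bars are ± 1 SD. *Ndufa12* is lower and Gm15920 higher in *mdx* in all 4 states, and the sum does not pass the test in any of them.

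The rest of the mitochondrial programme was read from lists of genes. All 16 genes of the TCA cycle and pyruvate dehydrogenase rose after injury in both genotypes (median 1.25 in WT and 1.11 in *mdx*), led in WT by *Dlat* (1.83 ± 0.08), and 15 of 16 rose in differentiation, led in WT by *Pdhb* (2.21 ± 0.08). Of 78 mitochondrial ribosomal proteins, which translate the 13 mitochondrial mRNAs, 69 rose after injury in WT (median 1.23, with 31.1% of all genes higher) and 50 in *mdx* (0.83, with 17.8% of all genes higher), and none fell. Without *mdx* AMuSC replicate 2 the count in *mdx* was 31. In differentiation 58 rose and 2 fell in WT (33.5% of all genes rose and 33.2% fell), and 47 rose and 1 fell in *mdx* (24.7% and 25.3%). Of 47 assembly factors 32 rose after injury in WT and 25 in *mdx*, with *Tmem70*, which helps to build the ATP synthase, at 1.94 ± 0.08 and 1.49 ± 0.17, and 35 of 46 and 33 of 47 rose in differentiation, with *Ndufaf3* at 3.25 ± 0.13 and 2.50 ± 0.22. The count of assembly factors that rose after injury in *mdx* was 14 without *mdx* AMuSC replicate 2. As a set of short and abundant transcripts for comparison, cytosolic ribosomal proteins had 32 of 78 higher and 2 lower after injury in WT, and 4 of 79 higher and 36 lower in differentiation in WT.

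Genes that copy, transcribe and process mitochondrial DNA and RNA were also compared in AMuSCs. Of 24 genes 9 were lower and none higher (8.36% of all genes were lower and 14.0% higher), with a median of -0.44 against 0.04 over all genes. Among the 9 were *Pnpt1*, which degrades mitochondrial RNA (-0.60 ± 0.10, adjusted p = 0.00961), *Fastkd5* (-0.94 ± 0.19), the DNA-binding *Ssbp1* (-0.50 ± 0.11) and *Lrpprc*, which stabilises mitochondrial mRNA (-0.71 ± 0.16). The count was 9 without replicate 1, 14 without replicate 2 (where 27.2% of all genes were called) and 9 without replicate 3 of *mdx* AMuSCs. After injury 18 of 24 rose in WT (31.1% of all genes) and 7 in *mdx* (17.8%), and the latter count was 3 without *mdx* AMuSC replicate 2 and 4 without replicate 3. *Tfam*, which packs and transcribes mitochondrial DNA, had 21.8, 25.2 and 21.9 TPM in WT FiMuSCs and 37.7, 33.9 and 34.0 TPM in WT AMuSCs, and 23.7, 28.3 and 32.4 TPM and 22.1, 26.4 and 29.2 TPM in *mdx*. Its response to injury differed between genotypes (-0.97 ± 0.21, adjusted p = 0.0135), in each of 21 alternatives.

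Mitochondrial ribosomal proteins were lower in *mdx* AMuSCs for 22 of 78 genes (8.36% of all genes were lower), with a median of -0.45. The count was 9 without replicate 1, 54 without replicate 2 (where 27.2% of all genes were called) and 8 without replicate 3 of *mdx* AMuSCs. *Cycs*, the cytochrome c that carries electrons between complexes III and IV, had 3.96, 4.57 and 3.81 TPM in WT FiMuSCs and 24.8, 26.4 and 22.5 TPM in WT AMuSCs, and 4.07, 4.34 and 5.08 TPM and 9.84, 16.5 and 13.8 TPM in *mdx*. It rose in both genotypes (3.01 ± 0.12 and 1.78 ± 0.23), and the difference was -1.29 ± 0.28 (adjusted p = 0.0135), called in each of 21 alternatives. Every *mdx* AMuSC library was below every WT AMuSC library (-1.08 ± 0.21, adjusted p = 0.0136).

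Regulators of mitochondrial biogenesis moved in both directions. After injury in WT 7 of 17 rose and 5 fell, where 31.1% of all genes rose and 30.7% fell. The coactivator *Ppargc1b* (2.26 ± 0.14) and the nuclear receptor *Esrra* (1.45 ± 0.14) were higher and the related *Esrrg* lower (-4.14 ± 0.45). *Esrrg* was also lower in *mdx* than in WT FiMuSCs (-2.06 ± 0.23, adjusted p = 0.0057), with 0.475, 0.339 and 0.667 TPM against 1.54, 3.27 and 1.41 TPM. In differentiation in WT 9 rose and 7 fell, where 33.5% of all genes rose and 33.2% fell. *Ppargc1a*, the coactivator best known for driving mitochondrial genes in muscle, was at 2.61 ± 0.14 and *Myc* at -2.75 ± 0.14. Of the hypoxia list of 10 genes 2 were higher and 2 lower in *mdx* FiMuSCs, where 5.20% of all genes were higher and 3.14% lower. *Vegfa* was lower (-1.90 ± 0.12) and *Ndrg1* higher (0.95 ± 0.15).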

How the data were processed

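RNA-seq libraries (polyA, directional) were quantified by the authors with Salmon 0.13.1, and the submitters' processing notes also name DESeq2 and GRCm38. The deposited files hold expected counts and TPM for each of 136202 transcripts, named by GENCODE fields. Expected counts were summed per gene (protein-coding transcripts only for the members), rounded, and tested with edgeR 4.0.16 in R 4.3.3 (quasi-likelihood, robust, TMM, filterByExpr), with Benjamini-Hochberg adjustment over all genes tested and a threshold of 0.05. Each fit held the libraries of its comparison. TPM was summed per gene for levels. Depth was 37280196 to 64429222 counts per library. Shares were compared by the exact permutation test, for which 3 against 3 libraries cannot go below p = 0.1. The fits were tested on simulated data. DESeq2 1.42.0, other filters, scalings, blocks and libraries left out were alternatives.

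Copies of members were found with BLAST 2.17.0. Start regions came from RefSeq (GRCm38.p6). The members and gene lists were chosen with earlier results of these data known. Genes were named by rule: the 13 mitochondrial genes, the isoform pairs, the 6 largest called rises and falls per comparison, the 2 members of each complex with the highest TPM and up to 4 genes of each other list with the smallest p. Gm15920, *Sdhb* and the transcripts of *Ndufv3*, were chosen after their values were seen. Replicate numbers were not taken as pairs: the correlation of same-numbered deviations was over 0.1 for every pair in none of the comparisons, although all were above 0 for myotubes against myoblasts (0.0555 to 0.328 in *mdx* and 0.0223 to 0.0905 in WT).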

Additional observations from a re-analysis of the deposited data

Results flagged for a closer look

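The response to injury differed between *mdx* and WT by the test of the difference itself (edgeR, adjusted p under 0.05) for 1 subunit and for genes of the other lists. For *Ndufv3* the difference, *mdx* minus WT, was 0.96 on the log2 scale, as described above.

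Of carriers and assembly factors, the difference was -1.29 for *Cycs*, -0.87 for *Ndufaf2*, -0.48 for *Coa5* and -0.77 for *Cox10*. Of 21 alternatives none lost the call of *Cycs*, 10 that of *Ndufaf2*, 15 that of *Coa5* and 13 that of *Cox10*.

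Of genes that handle mitochondrial DNA and RNA, it was -1.09 for *Pnpt1*, -0.97 for *Tfam*, -1.01 for *Fastkd5* and -1.72 for *Fastkd2*. None of the 21 alternatives lost *Pnpt1* or *Tfam*, 7 lost *Fastkd5* and 8 lost *Fastkd2*.

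Of the regulators, it was -0.89 for *Gabpb1*, a subunit of GABP, -0.83 for the deacetylase *Sirt1*, -1.44 for *Pprc1* and 2.70 for *Perm1*. The level of *Perm1* was low, at most 0.580 TPM in any library. The calls of *Gabpb1* and *Sirt1* were each lost in 1 alternative, that of *Perm1* in 7 and that of *Pprc1* in 8.

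Of mitochondrial ribosomal proteins it was -1.15 for *Mrpl12*, -0.82 for *Mrpl1*, -0.92 for *Mrpl3* and -0.80 for *Mrpl16*, lost in 0, 2, 7 and 9 alternatives.

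In the hypoxia list it was -1.52 for the glucose transporter *Slc2a1* and 2.00 for *Pdk1*, which inhibits pyruvate dehydrogenase, lost in 5 and 9 alternatives. *Rps19bp1*, which has the symbol pattern of the ribosomal list but is not a ribosomal protein, had -0.95, lost in 12 alternatives.

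A signal outside the members was that of the pseudogene Gm15920, with a mean of 327 TPM in *mdx* myotubes.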

How the results depend on the processing

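No named member changed sign under an alternative, but some medians near 0 did. That of the mitochondrial genes in *mdx* against WT FiMuSCs went from -0.08 to 0.07 without WT replicate 1, and that of all members in myotubes from -0.13 to 0.0039 without *mdx* replicate 1. The number of called members in *mdx* against WT FiMuSCs (2) was 6 with DESeq2 and 1 each with no filter, a length offset, all 24 libraries in one fit, the replicate block or copies summed (an alternative chosen after seeing the data), and 1 to 6 with 1 library left out. In AMuSCs (7) it was 13 with DESeq2, 20 with all 24 libraries, 4 with the replicate block and 2 to 37 with 1 library left out. In myoblasts (0) it was 1 with DESeq2 and 0 to 1 with 1 library left out. In myotubes (0) it was 1 with DESeq2, with all transcript types or with all 24 libraries, and 0 to 2 with 1 library left out. The difference of the injury response (1) was 2 with DESeq2 or all transcript types, 0 with a length offset and 0 to 16 with 1 library left out, the highest without *mdx* AMuSC replicate 2, with 15 of the 16 lower where the single call with all libraries was higher. It was 0 without WT FiMuSC replicate 3, *mdx* FiMuSC replicate 2 or 3 or WT AMuSC replicate 1 or 2. The cause was not tested. With all libraries 8.34% of all genes passed in FiMuSCs, 22.3% in AMuSCs and 13.3% for the difference of the injury response. In AMuSCs this share also moved with 1 library left out, as given above. The other counts of this paragraph stand without the share of all genes in the same fit. They thus do not tell a change in the members from a change in all genes. The replicate numbers are only shared numbers, and with the replicate block 65 and 48 members were called after injury and 87 and 80 in differentiation, in WT and *mdx*. Of 1626 alternative values for 108 named genes in a comparison, 1497 kept their call, 123 lost it and 6 gained one. Depth does not separate *Ndufa12* from Gm15920, or other members from near-identical copies.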
